A study of Homo sapiens with 12 samples.

Results

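The 39 genes described here code for proteins of homologous recombination, the Fanconi anemia pathway and the DNA damage checkpoint. They were chosen by symbol and matched to Ensembl identifiers, and all 39 were found among the 63241 genes of the count table. Homologous recombination repairs broken DNA by copying an intact sister strand: nucleases trim the broken ends, and BRCA1, PALB2 and BRCA2 then help to load a recombinase onto the exposed strand. The Fanconi pathway marks and unhooks crosslinks between the DNA strands through a nuclear ubiquitin ligase and its FANCD2 and FANCI substrates. The kinases ATM and ATR sense breaks and stalled forks, and pass the signal to CHEK2 and CHEK1, which delay the cell cycle. Many of these genes are known to be expressed most in S phase.

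Total RNA was sequenced after ribosomal RNA depletion in 12 libraries of HCT116, a line from a human colorectal carcinoma, which form 4 groups of 3. Actinomycin D, a compound that binds DNA and blocks transcription, was given to wild-type cells at 5 µg/mL for 6 h. POLR1A is the largest subunit of RNA polymerase I, and its degradation was induced in a line with degron-tagged endogenous POLR1A that received 1 µg/ml doxycycline from 24 h before 500 µM indole-3-acetic acid. POLR2A is the matching subunit of RNA polymerase II, and its degradation was induced in a POLR2A-AID2 line with 5-phenyl-indole-3-acetic acid at 1 µM. The controls were wild-type cells given DMSO. Sample titles state 8 h for the depleted and control groups, whereas the extraction text states a harvest at 6 h for all. Neither tagged line had untreated libraries among those analysed, so the line, the inducer and the ligand cannot be told apart from the loss of the subunit, whose protein was not measured in these files. Replicates were separate dishes treated on the same day, so every p-value measures only the spread between such dishes.

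Library totals were 20302228 to 27394059 estimated counts with actinomycin D, 18797087 to 21802364 after POLR1A loss, 11289272 to 15037531 after POLR2A loss and 12235119 to 17535790 in controls. A degron removes protein and not RNA, so the targets' own transcripts do not check the labels. POLR1A had 147, 151 and 145 CPM (counts scaled to a common library total) in its depleted libraries, against 234, 249 and 229.8 CPM in controls. It was also below the controls after POLR2A loss, at 128, 142 and 133 CPM, and with actinomycin D, at 193, 203 and 177 CPM. POLR2A had 1094, 1073 and 1110.4 CPM in its depleted libraries, against 468, 561 and 514 CPM in controls. It was also above the controls after POLR1A loss, at 908, 910 and 945 CPM, and had 576, 620 and 558 CPM with actinomycin D. Of 12 intestinal epithelial markers, KRT8, KRT18, KRT19 and EPCAM were abundant, while CDX1 was at 0 in every group and LGALS4 and TSPAN8 were below 1 CPM on average. The epithelial markers summed to 3324 to 3617 CPM with actinomycin D, 1960 to 2103 after POLR1A loss, 2458 to 2670 after POLR2A loss and 3627 to 4107 in controls. Endothelial markers summed to 10.0 to 13.8 CPM after POLR2A loss and to less than 1 CPM in every library of the other groups, and blood markers to 9.25 to 11.1 CPM against at most 3.29 CPM elsewhere. After POLR2A loss PECAM1 (7.92 CPM on average) and KDR (2.64 CPM) carried most of the endothelial sum, while VWF averaged 0.45 CPM there and in controls. Fibroblast markers summed to 10.7 to 12.3 CPM with actinomycin D, 21.6 to 23.0 after POLR1A loss, 13.9 to 18.3 after POLR2A loss and 7.31 to 8.06 in controls. Neural markers summed to 132 to 135 CPM with actinomycin D, 96.7 to 104 after POLR1A loss, 75.4 to 78.5 after POLR2A loss and 147 to 162 in controls. SYT1 (means of 111, 70.2, 35.5 and 106 CPM in that order) and MBP (20.5, 27.4, 37.4 and 44.9 CPM) made up nearly all of it. The part of these markers in the results was not tested. In RNA from whole dishes, fewer cells that express a gene and less RNA per cell cannot be told apart.

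Every member had at least 24.91 counts in every library, so all 39 were tested. Levels are CPM scaled by TMM (trimmed mean of M values, which fixes the bulk of genes as unchanged). Differences are log2 fold changes of the edgeR fit, and a call needed a p below 0.05 after Benjamini-Hochberg adjustment over 23593 genes. The standard error (SE) was worked back from the edgeR test, as the absolute log2 fold change over the square root of its F statistic. Levels per kilobase of exon in controls ran from 1.07 CPM per kb for RAD51B to 56.4 CPM per kb for FANCL, with a median of 8.995 CPM per kb. The 39 members together took 2472 ± 97.9 CPM with actinomycin D, 2211 ± 34.8 CPM after POLR1A loss, 2166 ± 42.9 CPM after POLR2A loss and 2804 ± 110.5 CPM in controls (mean ± SD, n = 3 each). Controls had the highest mean for 20 members and the lowest for none. The lowest mean lay with actinomycin D for 11 members, after POLR1A loss for 13 and after POLR2A loss for 15. This order of means was not counted over all genes, so it is not set apart from a general pattern.

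Promoters are shown for members that stood at the extremes of the comparisons, with the letters of searched motifs in capitals. The windows run 5′ to 3′ on the gene's strand from 250 bases before to 50 bases after a RefSeq transcription start on GRCh38.p14. PALB2 lies at chr16:23641261-23641560 and FANCF at chr11:22625774-22626073, both on the minus strand. CHEK1 is at chr11:125625979-125626278 and RBBP8 at chr18:22933617-22933916, both on the plus strand, and XRCC2 is at chr7:152676092-152676391 on the minus strand.
PALB2: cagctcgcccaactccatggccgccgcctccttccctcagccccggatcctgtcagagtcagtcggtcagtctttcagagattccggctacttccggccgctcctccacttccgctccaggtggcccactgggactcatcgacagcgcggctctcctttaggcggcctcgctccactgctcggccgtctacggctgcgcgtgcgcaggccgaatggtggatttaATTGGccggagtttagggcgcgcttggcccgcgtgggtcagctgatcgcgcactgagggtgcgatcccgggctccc
FANCF: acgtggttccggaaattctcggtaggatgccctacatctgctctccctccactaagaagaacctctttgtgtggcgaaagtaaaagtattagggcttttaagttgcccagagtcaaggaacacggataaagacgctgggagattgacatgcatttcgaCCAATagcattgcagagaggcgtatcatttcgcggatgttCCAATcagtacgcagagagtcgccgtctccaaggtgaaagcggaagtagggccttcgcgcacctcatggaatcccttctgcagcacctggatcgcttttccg
CHEK1: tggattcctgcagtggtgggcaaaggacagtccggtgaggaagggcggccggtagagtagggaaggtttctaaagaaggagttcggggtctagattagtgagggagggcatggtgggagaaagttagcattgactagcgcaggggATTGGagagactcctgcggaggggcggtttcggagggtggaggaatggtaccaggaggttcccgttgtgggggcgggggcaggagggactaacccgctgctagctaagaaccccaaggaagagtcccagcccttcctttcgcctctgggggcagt
RBBP8: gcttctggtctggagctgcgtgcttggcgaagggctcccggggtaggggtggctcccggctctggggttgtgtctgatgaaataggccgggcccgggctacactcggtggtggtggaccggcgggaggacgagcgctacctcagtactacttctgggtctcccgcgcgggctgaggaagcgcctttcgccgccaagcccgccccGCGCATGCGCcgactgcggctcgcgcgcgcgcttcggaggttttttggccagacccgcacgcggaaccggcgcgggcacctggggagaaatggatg
XRCC2: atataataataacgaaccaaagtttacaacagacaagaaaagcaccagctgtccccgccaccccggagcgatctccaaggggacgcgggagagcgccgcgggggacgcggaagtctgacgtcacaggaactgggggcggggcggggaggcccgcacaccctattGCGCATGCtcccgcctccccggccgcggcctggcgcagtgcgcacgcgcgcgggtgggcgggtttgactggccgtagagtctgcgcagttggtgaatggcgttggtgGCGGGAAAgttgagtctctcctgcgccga
Capitals mark CCAAT, the letters of the NF-Y motif, in PALB2, FANCF and CHEK1, written ATTGG where it lies on the other strand. In RBBP8 they mark the core of the NRF1 site GCATGCGC on both strands, which overlap. RefSeq gives RBBP8 another window, chr18:22933078-22933377, which holds none of the motifs searched, and both lie inside the GENCODE span of the gene. CHEK1 has 3 windows that overlap, of which the one at chr11:125626106-125626405 holds 3 CCAAT boxes and the other two hold 1 each. XRCC2 holds an NRF1 core and an E2F letter string, both on the other strand.

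At least 1 window was found for 35 members, 48 in all, and both strands were searched for 4 motifs. E2F strings (TTTCCCGC, TTTGGCGC, TTTCGCGC or TTTGCCGC) occurred in 6 of 35 members, or 17.1%, against 3.99% of 27305 genes with a window and 7.24% of 8216 expressed protein-coding genes. Those members were EXO1, FANCA, FANCC, FANCD2, TOPBP1 and XRCC2. CCAAT occurred in 45.7% of the members, against 39.7% of all genes and 43.8% of expressed coding genes. The cell cycle homology region TTTGAA occurred in 11.4% of the members, against 18.2% of all and 13.3% of expressed coding genes. The NRF1 core was found in 8.57% of the members, namely RBBP8, SLX4 and XRCC2, against 3.68% of all and 6.91% of expressed coding genes. These matches describe letters only, and no binding was measured.

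Most members were called lower in each treated group than in controls. At least a 2-fold fall was seen for 8 members with actinomycin D, 1 after POLR1A loss and 4 after POLR2A loss. The share of all genes with such a fall was not counted, so these numbers describe the members alone. After POLR1A loss 31 of 39 members fell and 4 rose, or 79.5% and 10.3% of them, where 18.6% of all genes tested were called lower and 20.6% higher. Among protein-coding genes at a similar level (average log2 CPM of 3 or more), 30.6% were lower and 35.5% higher. After POLR2A loss 25 members fell and 3 rose, or 64.1% and 7.69%, against 28.2% of all genes called lower and 33.2% higher. Of the expressed coding genes, 51.4% were lower and 22.7% higher. With actinomycin D 20 members fell and 7 rose, or 51.3% and 17.9%, against 28.5% of all genes called lower and 24.9% higher. Of the expressed coding genes, 34.6% were lower and 45.3% higher. The members' median log2 fold change was -0.51 after POLR1A loss, -0.48 after POLR2A loss and -0.27 with actinomycin D. The medians over all genes tested in the same comparisons were 0.01, 0.08 and -0.06, and over expressed coding genes 0.04, -0.22 and 0.12. These 3 comparisons share the control libraries.

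The scale decides part of these counts. Mitochondrial mRNAs made up 3.47 ± 0.06% of counts with actinomycin D, 5.74 ± 0.21% after POLR1A loss, 9.51 ± 0.86% after POLR2A loss and 7.22 ± 1.07% in controls (mean ± SD, n = 3 each). Single controls ran from 6.06% to 8.17%. A change in the mitochondrial mRNAs themselves cannot be told apart from a change in the other RNAs. A sign that turns when they serve as the reference therefore does not by itself set the direction. Scaled to the 13 mitochondrial mRNAs in place of TMM, the median of all genes moved to 0.37 after POLR1A loss, -0.20 after POLR2A loss and 0.82 with actinomycin D, and that of the members to -0.15, -0.76 and 0.64. Set against the median of all genes, the members lay at -0.53 after POLR1A loss, -0.57 after POLR2A loss and -0.21 with actinomycin D under TMM. They lay at -0.52, -0.56 and -0.19 under the mitochondrial scaling, which moves all values of a comparison together. These offsets depend on the genes taken as reference, and expressed coding genes had medians of 0.04, -0.22 and 0.12 under TMM. The POLR2A offset was -0.91 with no filter on low counts and -0.92 with DESeq2, both over more genes. The POLR1A offsets there were -0.53 and -0.54, and those with actinomycin D -0.18 and -0.22. Under the mitochondrial scaling 26 members were called higher and 3 lower with actinomycin D, and 7 were called lower after POLR1A loss. For single members below, a value under this scaling is given only where the sign turned. Calls lost without such a turn are not marked. All directions below are therefore relative to the bulk of genes, and a total loss of RNA per cell cannot be seen in them.

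**Figure D1:**
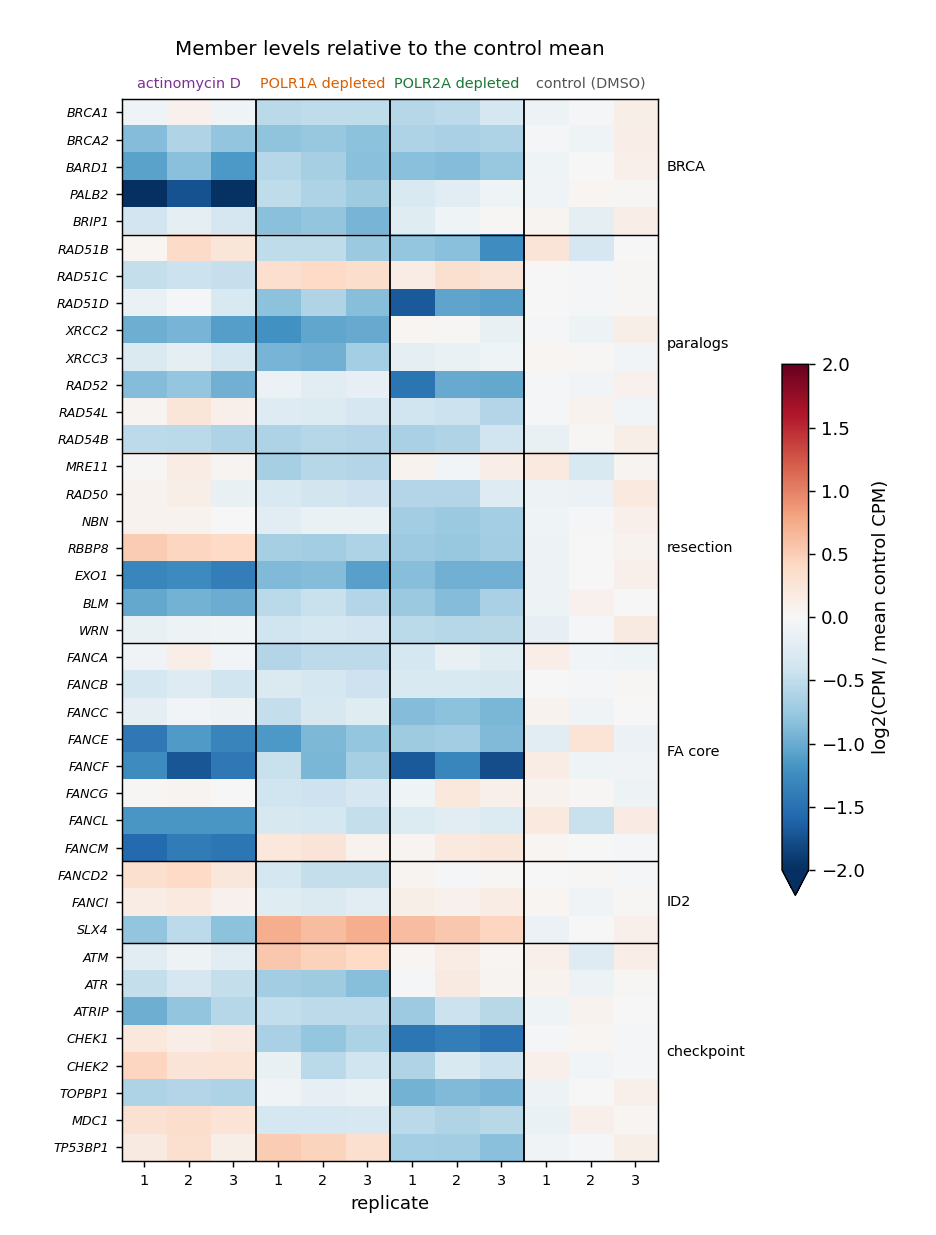
Log2 ratio of the CPM in each of the 12 libraries (columns) to the control mean for the 39 members (rows, grouped by role). Colours stop at -2, and the darkest row is PALB2, with 9.27, 12.4 and 10.5 CPM with actinomycin D, against a control mean of 41.6 ± 1.64 CPM (SD, n = 3).

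BRCA1, BARD1, BRCA2, PALB2 and BRIP1 build the platform that carries the recombinase to the broken end. All 5 fell after POLR1A loss, 3 of 5 fell after POLR2A loss and 4 of 5 fell with actinomycin D. Of those 4, BRIP1 was called higher under the mitochondrial scaling, and BRCA2 had a value of 0.16 there that did not pass the test. The shares of all genes tested called lower in these comparisons were 18.6%, 28.2% and 28.5%, and of expressed coding genes 30.6%, 51.4% and 34.6%. Counts by role, here and below, were not tested as sets. The bridge between BRCA1 and BRCA2, PALB2 (ENSG00000083093, chr16:23603160-23641310, minus strand in GENCODE 29 on GRCh38), had 9.27, 12.4 and 10.5 CPM with actinomycin D, 29.3, 27.1 and 25.3 CPM after POLR1A loss, 33.7, 35.8 and 39.2 CPM after POLR2A loss and 39.7, 42.9 and 42.2 CPM in controls. The actinomycin D libraries lay far below all others, and the libraries after POLR1A loss lay below those after POLR2A loss. PALB2 fell by 1.94 (SE 0.098) on the log2 scale with actinomycin D, at an adjusted p of 2.92e-13, and by 0.61 (SE 0.090) after POLR1A loss. Its log2 fold change of -0.20 after POLR2A loss did not pass the test, although the POLR2A-depleted libraries all lay below the controls.

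BRCA1, the ubiquitin ligase that favours trimming of the broken ends, had 65.5, 67.4 and 67.5 CPM after POLR1A loss and 64.4, 66.8 and 74.6 CPM after POLR2A loss, against 89.5, 94.1 and 103 CPM in controls. Both depleted groups lay below every control, and BRCA1 fell by 0.52 (SE 0.066) and 0.48 (SE 0.068) on the log2 scale. With actinomycin D it had 90.2, 101 and 89.9 CPM, within the control range, at a log2 fold change of -0.029 (SE 0.065) that did not pass the test. BARD1, the obligate partner of BRCA1, averaged 23.8 ± 2.77 CPM with actinomycin D, 29.9 ± 2.78 CPM after POLR1A loss, 27.2 ± 1.03 CPM after POLR2A loss and 47.9 ± 3.08 CPM in controls (SD, n = 3 each). It fell in all 3 comparisons, by 1.01 with actinomycin D, 0.68 after POLR1A loss and 0.82 after POLR2A loss, while its partner BRCA1 did not pass the test with actinomycin D. BRCA2, which loads the recombinase, fell by 0.75 with actinomycin D, 0.80 after POLR1A loss and 0.63 after POLR2A loss. The helicase BRIP1, a partner of BRCA1, had 50.1, 51.9 and 47.1 CPM after POLR1A loss, 75.7, 84.8 and 91.1 CPM after POLR2A loss and 92.8, 78.4 and 98.2 CPM in controls. Only its POLR1A-depleted libraries lay clear of the controls among these, with a fall of 0.85 (SE 0.084) on the log2 scale. With actinomycin D it fell by 0.30, a value that turned positive (0.61) under the mitochondrial scaling.

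The paralogs of the recombinase (RAD51B, RAD51C, RAD51D, XRCC2 and XRCC3) form small complexes that steady its filament, while RAD52 anneals strands and RAD54L and RAD54B are motor proteins that act on the filament. After POLR1A loss 6 of these 8 fell and 1 rose, and after POLR2A loss 5 fell and 1 rose. With actinomycin D 5 fell and none rose. Of those 5, RAD51C, XRCC3 and RAD54B were called higher under the mitochondrial scaling, and RAD52 had a value of 0.049 there that did not pass the test. In the same order, 18.6%, 28.2% and 28.5% of all genes tested were lower and 20.6%, 33.2% and 24.9% higher. Expressed coding genes gave 30.6%, 51.4% and 34.6% lower and 35.5%, 22.7% and 45.3% higher.

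XRCC2 (ENSG00000196584, chr7:152644779-152676165, minus strand) had 27.9, 28.6 and 25.5 CPM with actinomycin D, 23.8, 26.6 and 27.2 CPM after POLR1A loss, 56.1, 55.5 and 49.5 CPM after POLR2A loss and 53.6, 50.95 and 59.6 CPM in controls. The actinomycin D and POLR1A-depleted libraries were about level with each other and below all the rest, and the POLR2A-depleted libraries overlapped the controls. XRCC2 fell by 1.08 (SE 0.079) on the log2 scale after POLR1A loss, the lowest value of any member in that comparison, at an adjusted p of 3.73e-10. With actinomycin D it fell by 1.00 (SE 0.079), and after POLR2A loss the difference was -0.025 (SE 0.077). RAD51D (ENSG00000185379, chr17:35092208-35121522, minus strand) had 21.9, 23.2 and 19.4 CPM with actinomycin D, 13.6, 15.7 and 13.3 CPM after POLR1A loss, 7.44, 11.4 and 11.3 CPM after POLR2A loss and 23.8, 23.4 and 24.4 CPM in controls. Its POLR2A-depleted libraries were the lowest of all, and it fell by 1.25 (SE 0.13) on the log2 scale, at an adjusted p of 4.00e-08.

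RAD51C, which sits in both paralog complexes, was higher with either subunit depleted. It had 37.9, 39.4 and 38.4 CPM with actinomycin D, 66.4, 69.9 and 67.1 CPM after POLR1A loss, 58.7, 65.7 and 62.9 CPM after POLR2A loss and 52.7, 52.03 and 53.7 CPM in controls. All depleted libraries lay above the controls and all actinomycin D libraries below them. RAD51C rose by 0.36 (SE 0.058) after POLR1A loss and by 0.24 (SE 0.060) after POLR2A loss, where the mitochondrial scaling gave -0.044. It fell by 0.45 (SE 0.060) with actinomycin D, where that scaling gave 0.46. RAD52 had 11.3, 12.02 and 10.6 CPM with actinomycin D, 18.98, 17.7 and 18.5 CPM after POLR1A loss, 7.51, 10.2 and 10.1 CPM after POLR2A loss and 20.1, 19.96 and 21.8 CPM in controls. The POLR1A-depleted libraries were close below the controls and the other treated libraries well below, with falls of 0.87 with actinomycin D and 1.15 after POLR2A loss. RAD51B, the longest gene of the set, was weakly expressed, at 8.19, 10.4 and 9.49 CPM with actinomycin D, 5.65, 5.63 and 4.79 CPM after POLR1A loss, 4.69, 4.50 and 3.40 CPM after POLR2A loss and 9.60, 6.35 and 8.06 CPM in controls. It fell by 0.91 (SE 0.18) after POLR2A loss. The fall of 0.57 (SE 0.17) after POLR1A loss did not pass the test without POLR1A replicate 3 (-0.49) or without control replicate 1 (-0.42).

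**Figure D2:**
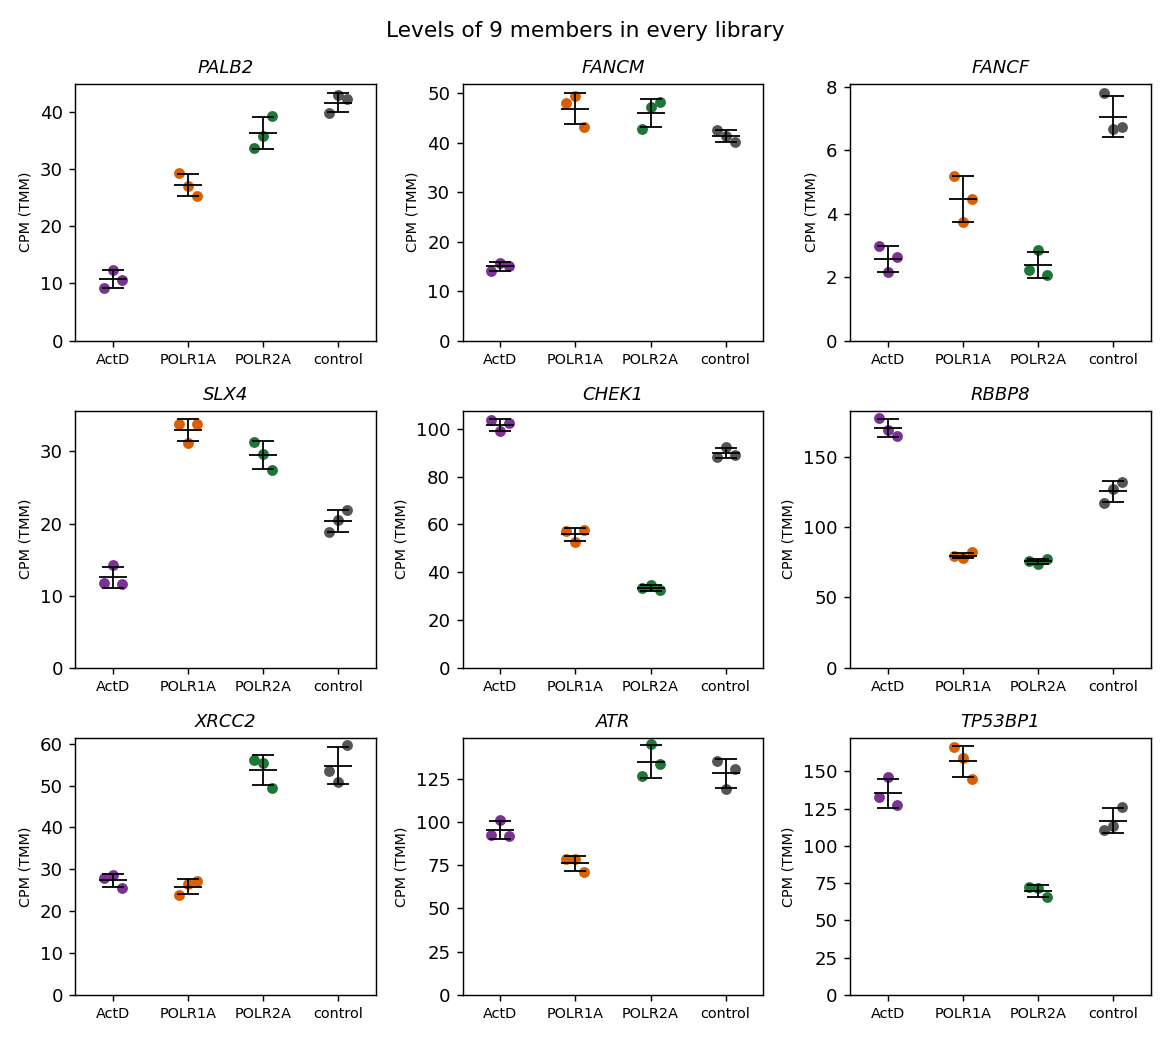
CPM scaled by TMM in every library (points) with mean ± SD (lines, n = 3) for 9 members, in the order actinomycin D, POLR1A depleted, POLR2A depleted and control. FANCM and PALB2 are lowest with actinomycin D, where PALB2 averages 10.7 ± 1.59 CPM, against 41.6 ± 1.64 CPM in controls.

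End resection cuts back a strand at a break. MRE11, RAD50 and NBN form the complex that starts it, RBBP8 (CtIP) activates that complex, EXO1 extends the cut, and the helicases BLM and WRN unwind DNA ahead of nucleases. All 7 fell after POLR1A loss, where NBN had a value of 0.19 under the mitochondrial scaling that did not pass the test. Most of the members called lower after POLR1A loss lost the call under that scaling, many with no turn of sign. After POLR2A loss 6 of the 7 fell. With actinomycin D only EXO1 and BLM fell and RBBP8 rose. Beside these counts, 18.6%, 28.2% and 28.5% of all genes tested were lower in that order, and 30.6%, 51.4% and 34.6% of expressed coding genes. With actinomycin D 24.9% of all genes and 45.3% of expressed coding genes were higher.

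RBBP8 (ENSG00000101773, chr18:22798261-23026488, plus strand) had 178, 169.5 and 165 CPM with actinomycin D, 79.5, 78.03 and 82.1 CPM after POLR1A loss, 75.9, 74.1 and 77.4 CPM after POLR2A loss and 117, 127 and 133 CPM in controls. The actinomycin D libraries lay above every control and the depleted libraries below every control. RBBP8 rose by 0.44 (SE 0.053) with actinomycin D, at an adjusted p of 2.91e-07, and fell by 0.66 (SE 0.054) after POLR1A loss and by 0.73 (SE 0.055) after POLR2A loss. EXO1 (ENSG00000174371, chr1:241847967-241895148, plus strand) had 34.8, 35.6 and 32.8 CPM with actinomycin D, 46.5, 47.2 and 40.3 CPM after POLR1A loss, 47.4, 43.9 and 44.2 CPM after POLR2A loss and 80.3, 85.4 and 92.1 CPM in controls. All 9 treated libraries lay below all controls, and the falls were 1.32 (SE 0.071), 0.95 (SE 0.070) and 0.93 (SE 0.072) in that order. BLM, whose product also dissolves joined strands, fell by 0.99 with actinomycin D, 0.52 after POLR1A loss and 0.76 after POLR2A loss.

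Within the break-sensing complex, the nuclease MRE11 averaged 35.3 ± 1.58 CPM with actinomycin D, 21.98 ± 0.679 CPM after POLR1A loss, 34.7 ± 2.36 CPM after POLR2A loss and 33.5 ± 5.70 CPM in controls (SD, n = 3 each). It fell by 0.60 (SE 0.098) after POLR1A loss and passed the test in neither other comparison with controls. NBN, the adaptor that recruits ATM, had 114, 121 and 121 CPM after POLR1A loss, 82.1, 79.1 and 83.2 CPM after POLR2A loss and 125, 131 and 142 CPM in controls. The POLR2A-depleted libraries were the lowest by a wide margin and NBN fell by 0.71 (SE 0.056) there. Its fall of 0.17 (SE 0.054) after POLR1A loss did not pass the test without POLR1A replicate 1 (-0.13) or control replicate 3 (-0.10). RAD50, the tether of the complex, fell by 0.48 (SE 0.11) after POLR2A loss, and by 0.36 (SE 0.11) after POLR1A loss, a call that was lost without POLR1A replicate 3 (-0.33) or control replicate 3 (-0.25). WRN fell by 0.38 after POLR1A loss and by 0.56 after POLR2A loss.

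The Fanconi core complex is the ubiquitin ligase of the pathway: FANCL is its catalytic subunit, FANCA, FANCB, FANCC, FANCE, FANCF and FANCG assemble it, and FANCM is the motor protein that anchors it to DNA. After POLR1A loss 6 of these 8 fell, after POLR2A loss 5 fell and with actinomycin D 5 fell, of which FANCB was higher under the mitochondrial scaling. None rose.

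FANCM (ENSG00000187790, chr14:45135940-45200890, plus strand) had 14.02, 15.7 and 15.1 CPM with actinomycin D, 48.03, 49.4 and 43.2 CPM after POLR1A loss, 42.8, 47.1 and 48.2 CPM after POLR2A loss and 42.5, 41.4 and 40.1 CPM in controls. The actinomycin D libraries stood apart below all others, and every depleted library lay above every control. FANCM fell by 1.46 (SE 0.078) with actinomycin D, at an adjusted p of 8.72e-13. Its differences of 0.18 (SE 0.072) after POLR1A loss and 0.16 (SE 0.074) after POLR2A loss did not pass the test.

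FANCF (ENSG00000183161, chr11:22622890-22625841, minus strand), an adaptor within the complex, was the most weakly counted member. It had 2.97, 2.15 and 2.63 CPM with actinomycin D, 5.19, 3.75 and 4.47 CPM after POLR1A loss, 2.21, 2.84 and 2.07 CPM after POLR2A loss and 7.81, 6.65 and 6.72 CPM in controls. All treated libraries lay below all controls, with actinomycin D and POLR2A depletion lower than POLR1A depletion. FANCF fell by 1.56 (SE 0.22) after POLR2A loss, the lowest value of any member in that comparison (adjusted p = 2.81e-06), and by 1.45 (SE 0.21) with actinomycin D (adjusted p = 4.08e-06). Its fall of 0.66 (SE 0.20) after POLR1A loss was not called without POLR1A replicate 2 (-0.54) or without control replicate 1 (-0.58).

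FANCE (ENSG00000112039, chr6:35452356-35467103, plus strand), which connects the core complex to FANCD2, had 8.68, 10.7 and 9.40 CPM with actinomycin D, 10.6, 12.6 and 13.7 CPM after POLR1A loss, 14.3, 14.5 and 12.7 CPM after POLR2A loss and 20.1, 28.5 and 21.7 CPM in controls. The treated libraries all lay below the controls, which themselves varied. FANCE fell by 1.29 (SE 0.13) with actinomycin D, 0.93 (SE 0.13) after POLR1A loss and 0.76 (SE 0.13) after POLR2A loss. FANCL had 60.5, 60.9 and 60.8 CPM with actinomycin D and 156, 100.3 and 152 CPM in controls. Control replicate 2 was well below the other controls, yet the actinomycin D libraries were lower still, and FANCL fell by 1.16 (SE 0.14). FANCC fell by 0.86 after POLR2A loss and by 0.34 after POLR1A loss, where the mitochondrial scaling gave a value of 0.0032. FANCA fell by 0.54 after POLR1A loss and by 0.25 after POLR2A loss. FANCB fell by 0.33 with actinomycin D, 0.35 after POLR1A loss and 0.31 after POLR2A loss, and the POLR1A value was 0.0065 under the mitochondrial scaling. FANCG fell by 0.38 after POLR1A loss and passed the test in neither other comparison with controls.

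FANCD2 and FANCI are clamped onto DNA as a pair once the core complex has ubiquitinated them, and SLX4 is the scaffold that brings nucleases to the crosslink. After POLR2A loss FANCI and SLX4 rose and none fell, and with actinomycin D FANCD2 and FANCI rose and SLX4 fell. After POLR1A loss SLX4 rose and FANCD2 and FANCI fell, although FANCI turned positive (0.088) under the mitochondrial scaling. SLX4 with actinomycin D also turned positive under that scaling, and FANCI after POLR2A loss turned negative (-0.18). Among all genes tested, 33.2% were higher and 28.2% lower after POLR2A loss, 24.9% and 28.5% with actinomycin D, and 20.6% and 18.6% after POLR1A loss. For expressed coding genes the shares were 22.7% and 51.4%, 45.3% and 34.6%, and 35.5% and 30.6%.

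SLX4 (ENSG00000188827, chr16:3581181-3611598, minus strand) had 11.8, 14.3 and 11.6 CPM with actinomycin D, 33.8, 31.2 and 33.8 CPM after POLR1A loss, 31.3, 29.6 and 27.4 CPM after POLR2A loss and 18.8, 20.5 and 21.8 CPM in controls. Every depleted library was above the controls and every actinomycin D library below them. SLX4 rose by 0.69 (SE 0.092) after POLR1A loss (adjusted p = 2.38e-06) and by 0.53 (SE 0.094) after POLR2A loss (adjusted p = 5.33e-05), the highest value of any member in each of those comparisons. With actinomycin D it fell by 0.70 (SE 0.098), a sign that turned under the mitochondrial scaling (0.23).

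FANCD2 (ENSG00000144554, chr3:10026414-10101930, plus strand) had 131, 139 and 123 CPM with actinomycin D, 82.2, 75.5 and 75.3 CPM after POLR1A loss, 109.6, 103 and 106 CPM after POLR2A loss and 106, 106 and 103 CPM in controls. The order was actinomycin D above the controls and POLR1A depletion below them, with POLR2A depletion about level with the controls. FANCD2 rose by 0.32 (SE 0.055) with actinomycin D, at an adjusted p of 4.28e-05, and fell by 0.44 (SE 0.056) after POLR1A loss. FANCI had 163, 168 and 157 CPM with actinomycin D, 124, 121 and 126 CPM after POLR1A loss, 160.3, 157 and 165 CPM after POLR2A loss and 152, 141 and 150.2 CPM in controls. The POLR1A-depleted libraries were the lowest, and all libraries of the other treatments lay above the controls. Its rise of 0.12 (SE 0.049) after POLR2A loss, at an adjusted p of 0.037, was lost on leaving out any 1 of the 6 libraries compared, with values between 0.07 and 0.12. The rise of 0.14 (SE 0.049) with actinomycin D was lost without actinomycin D replicate 2 (0.13).

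Of the checkpoint kinases and mediators, ATM, ATR and its partner ATRIP stand at the start of the signal, TOPBP1 activates ATR, MDC1 and TP53BP1 gather at broken chromatin, and CHEK1 and CHEK2 are the effector kinases. After POLR1A loss 5 of 8 fell and 2 rose, after POLR2A loss 6 fell and none rose, and with actinomycin D 4 rose and 3 fell. Of the 3 that fell with actinomycin D, ATR and TOPBP1 were called higher under the mitochondrial scaling, and ATRIP had a value of 0.15 there that did not pass the test. All genes tested gave 18.6%, 28.2% and 28.5% lower and 20.6%, 33.2% and 24.9% higher in the order above. Expressed coding genes gave 30.6%, 51.4% and 34.6% lower and 35.5%, 22.7% and 45.3% higher.

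CHEK1 (ENSG00000149554, chr11:125625136-125676255, plus strand), the effector of ATR, had 104, 99.05 and 102 CPM with actinomycin D, 57.1, 52.8 and 57.8 CPM after POLR1A loss, 33.2, 34.6 and 32.4 CPM after POLR2A loss and 88.4, 92.4 and 88.9 CPM in controls. The 4 groups did not overlap, with actinomycin D highest and POLR2A depletion lowest. CHEK1 fell by 1.43 (SE 0.059) after POLR2A loss, at an adjusted p of 1.88e-14, and by 0.69 (SE 0.055) after POLR1A loss. It rose by 0.18 (SE 0.054) with actinomycin D. CHEK2 (ENSG00000183765, chr22:28687743-28742422, minus strand), the effector of ATM, had 34.2, 30.2 and 30.4 CPM with actinomycin D, 22.7, 17.3 and 19.1 CPM after POLR1A loss, 16.6, 20.4 and 18.8 CPM after POLR2A loss and 27.01, 24.2 and 24.5 CPM in controls. The actinomycin D libraries were above every control and the depleted libraries below every control. CHEK2 rose by 0.33 (SE 0.099) with actinomycin D (adjusted p = 0.00859) and fell by 0.44 after POLR2A loss. Its fall of 0.36 (SE 0.10) after POLR1A loss was lost without POLR1A replicate 2 (-0.27).

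ATM (ENSG00000149311, chr11:108222484-108369102, plus strand) had 88.5, 95.9 and 87.5 CPM with actinomycin D, 149, 141 and 135 CPM after POLR1A loss, 105, 113 and 105 CPM after POLR2A loss and 109.7, 85.4 and 113 CPM in controls. The POLR1A-depleted libraries were the highest, above every other library, and control replicate 2 was the lowest. ATM rose by 0.47 (SE 0.082) after POLR1A loss, at an adjusted p of 0.000219, and passed the test with neither other treatment. ATR (ENSG00000175054, chr3:142449235-142578826, minus strand) had 92.6, 101 and 91.8 CPM with actinomycin D, 78.8, 78.6 and 70.97 CPM after POLR1A loss, 126, 145 and 133 CPM after POLR2A loss and 135, 119 and 130.5 CPM in controls. Its POLR1A-depleted libraries were the lowest, and its POLR2A-depleted libraries overlapped the controls. ATR fell by 0.75 (SE 0.065) after POLR1A loss and by 0.43 (SE 0.064) with actinomycin D. ATRIP fell by 0.77 with actinomycin D, 0.51 after POLR1A loss and 0.57 after POLR2A loss, so it was lower after POLR2A loss where ATR did not pass the test.

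TP53BP1 (ENSG00000067369, chr15:43403061-43510728, minus strand), which restrains end resection, had 133, 146 and 127 CPM with actinomycin D, 166, 159 and 145 CPM after POLR1A loss, 72.7, 72.02 and 65.4 CPM after POLR2A loss and 111, 113 and 126 CPM in controls. POLR2A depletion lay below all controls and the other treatments above them. TP53BP1 rose by 0.42 (SE 0.066) after POLR1A loss, at an adjusted p of 1.90e-05, and fell by 0.74 (SE 0.069) after POLR2A loss. Its rise of 0.21 (SE 0.066) with actinomycin D was lost without actinomycin D replicate 2 (0.16). MDC1, a reader of marked histones at breaks, had 230.2, 240.0 and 226 CPM with actinomycin D, 146, 146 and 149.9 CPM after POLR1A loss, 128, 124 and 128 CPM after POLR2A loss and 170.0, 200.2 and 192 CPM in controls. It was above every control with actinomycin D and below every control in both depleted groups, with changes of 0.31, -0.35 (0.014 under the mitochondrial scaling) and -0.56 in that order. TOPBP1 fell by 0.61 with actinomycin D and by 0.92 after POLR2A loss, while its -0.13 after POLR1A loss did not pass the test.

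**Figure D3:**
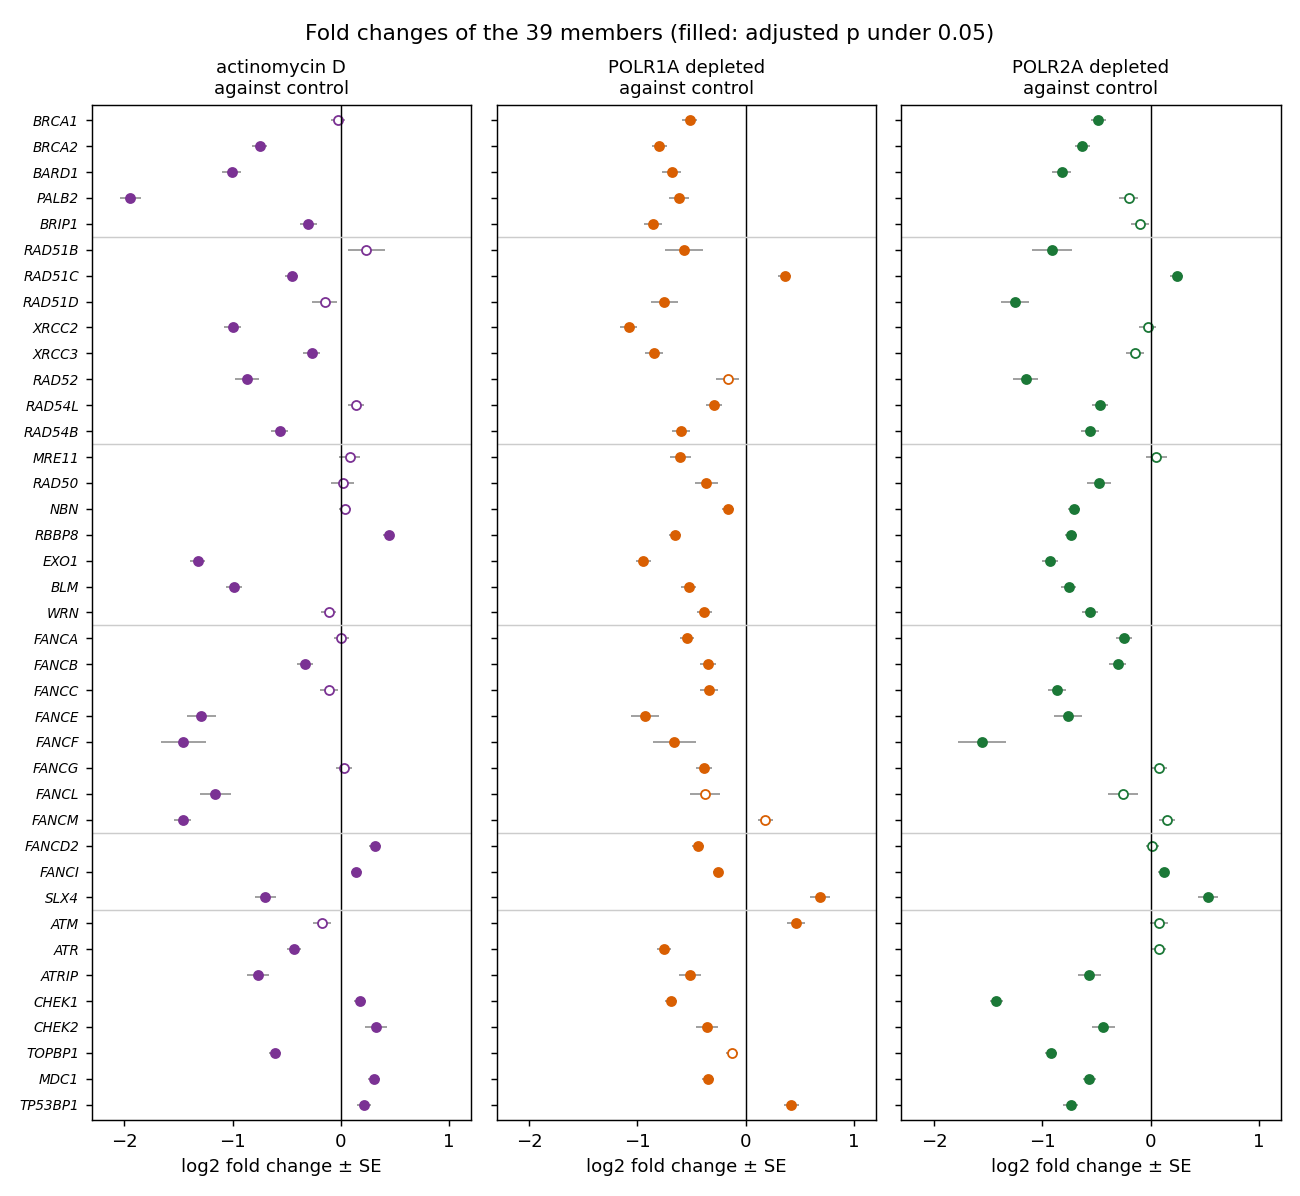
Log2 fold change against controls, with SE bars and filled points for adjusted p under 0.05, for the 39 members with actinomycin D, POLR1A depleted and POLR2A depleted. RBBP8 and CHEK1 lie above 0 with actinomycin D and below it in both depleted groups, at 0.44 and 0.18 with actinomycin D.

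The treatments were also set against each other. With actinomycin D over POLR1A depletion, 20 of 39 members were higher and 15 lower, or 51.3% and 38.5% of them, where 24.4% of all genes were called higher and 31.8% lower (41.1% and 38.5% of expressed coding genes). Under the mitochondrial scaling 25 were higher and 3 lower. RBBP8 was higher with actinomycin D by 1.10 (SE 0.053) on the log2 scale (adjusted p = 1.19e-13), CHEK1 by 0.86 (SE 0.054) and RAD51B by 0.81 (SE 0.17). FANCM was lower with actinomycin D, with a difference of -1.64 (SE 0.077) (adjusted p = 5.94e-14), followed by SLX4 at -1.39 (SE 0.093) and PALB2 at -1.33 (SE 0.098). These 6 were named only because their library values did not overlap between the groups, so that separation is no further result. The members' median was 0.21, against -0.12 for all genes and 0.03 for expressed coding genes.

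Against POLR2A depletion, actinomycin D gave 17 members higher and 12 lower, where 31.1% of all genes were higher and 39.8% lower (60% and 22.6% of expressed coding genes). The mitochondrial scaling gave 34 higher and 2 lower, and library totals without TMM gave 12 higher and 20 lower. CHEK1 led the higher members at 1.60 (SE 0.058) (adjusted p = 1.39e-15), then RBBP8 at 1.17 (SE 0.055) and RAD51B at 1.15 (SE 0.18). PALB2 led the lower members at -1.74 (SE 0.099) (adjusted p = 1.86e-12), then FANCM at -1.62 (SE 0.078) and SLX4 at -1.23 (SE 0.096). The members' median was 0.02, against -0.18 for all genes and 0.33 for expressed coding genes.

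Between the depleted lines, 12 members were higher and 11 lower after POLR1A loss than after POLR2A loss, or 30.8% and 28.2%, where 29.1% of all genes were higher and 33.2% lower (54.2% and 21.4% of expressed coding genes). Under the mitochondrial scaling 29 members were higher and 1 lower. TP53BP1 was higher after POLR1A loss by 1.16 (SE 0.068) (adjusted p = 4.56e-12), RAD52 by 0.99 (SE 0.12) and FANCF by 0.90 (SE 0.22). XRCC2 was lower after POLR1A loss, at -1.06 (SE 0.080) (adjusted p = 2.40e-10), as were ATR at -0.83 (SE 0.065) and BRIP1 at -0.75 (SE 0.084). BRIP1 had 50.1, 51.9 and 47.1 CPM after POLR1A loss and 75.7, 84.8 and 91.1 CPM after POLR2A loss. The median of the members was 0.08, against -0.08 for all genes and 0.26 for expressed coding genes.

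**Figure D4:**
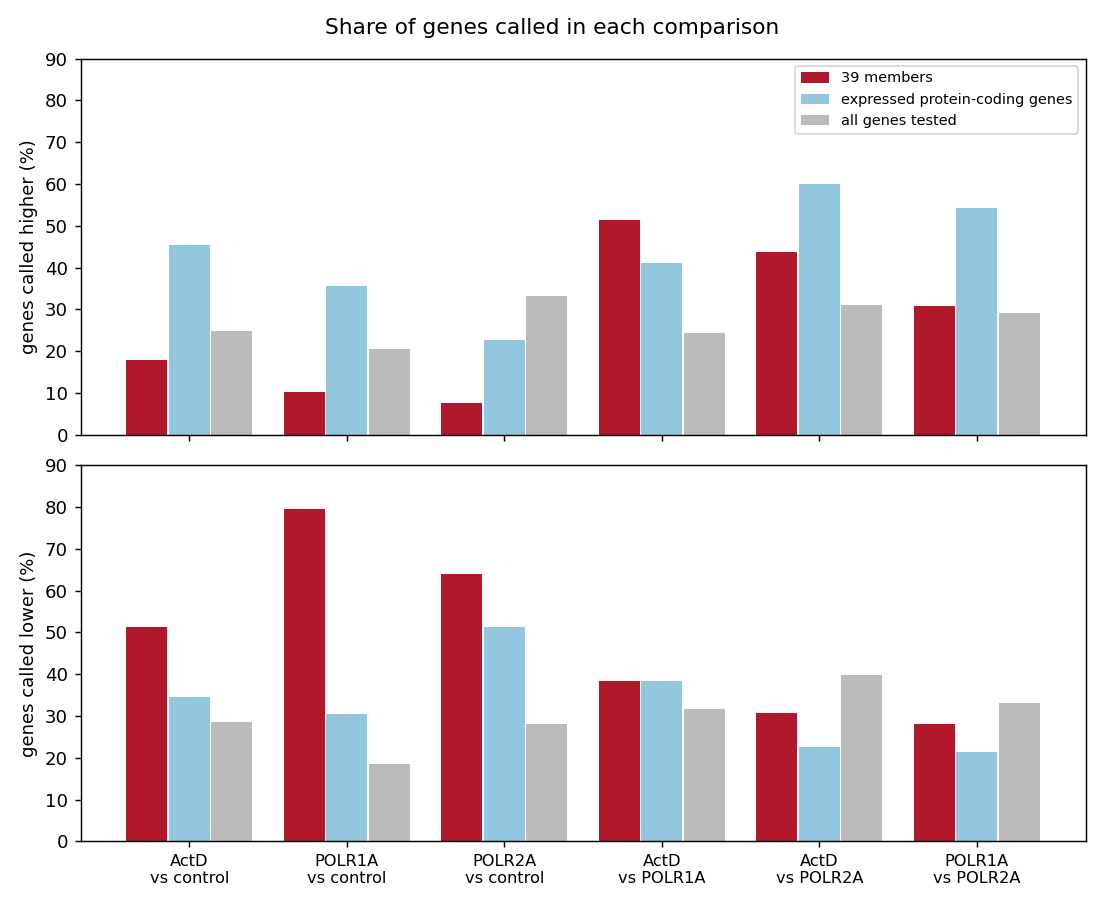
Percent of genes called higher (top) and lower (bottom) in each of the 6 comparisons, for the 39 members, for expressed protein-coding genes and for all genes tested. After POLR1A loss 79.5% of members are called lower than in controls, against 30.6% of expressed coding genes and 18.6% of all genes. The same shares are 64.1%, 51.4% and 28.2% after POLR2A loss, and 51.3%, 34.6% and 28.5% with actinomycin D.

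Other genes of the same pathways were counted from lists that hold no member. Their counts stand beside 18.6% of all genes tested called lower and 20.6% higher after POLR1A loss, 28.2% and 33.2% after POLR2A loss, and 28.5% and 24.9% with actinomycin D. Of expressed coding genes, 30.6%, 51.4% and 34.6% were lower and 35.5%, 22.7% and 45.3% higher in the same comparisons. Of 32 further homologous recombination genes, 15 fell and 7 rose after POLR1A loss, 17 fell and 6 rose after POLR2A loss, and 14 fell and 13 rose with actinomycin D. The mitochondrial scaling turned this to 4 lower and 9 higher after POLR1A loss, to 18 lower and 0 higher after POLR2A loss, and to 2 lower and 25 higher with actinomycin D. The deepest falls included the helicase loader HROB at -2.25 and the filament cofactor SWSAP1 at -2.10 with actinomycin D, and the nuclease subunit EME1 at -1.17 after POLR1A loss. The resolvase GEN1 led after POLR2A loss, at -0.92. Of 16 further Fanconi and crosslink repair genes, 6 fell and 4 rose after POLR1A loss, 10 fell and 3 rose after POLR2A loss, and 9 fell and 6 rose with actinomycin D, where that scaling gave 1 lower and 5 higher after POLR1A loss, 10 lower and 1 higher after POLR2A loss, and 0 lower and 10 higher with actinomycin D. FAAP100, a partner of FANCB and FANCL, changed by -1.35 after POLR1A loss, the ubiquitin ligase RFWD3 by -1.35 after POLR2A loss and the translesion polymerase REV1 by -1.24 with actinomycin D.

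Of 25 further damage signalling and checkpoint genes, 13 fell and 4 rose after POLR1A loss, 17 fell and 2 rose after POLR2A loss, and 16 fell and 4 rose with actinomycin D, where the mitochondrial scaling gave 3 lower and 7 higher after POLR1A loss, 20 lower and 2 higher after POLR2A loss, and 5 lower and 12 higher with actinomycin D. WEE1, the kinase that holds back mitosis, changed by -2.43 with actinomycin D, and the ATR activator ETAA1 by -1.97 with actinomycin D and -1.97 after POLR2A loss. The acetyltransferase KAT5 changed by -2.33 after POLR2A loss. PPM1D, a phosphatase that switches the checkpoint off, rose by 1.38 after POLR1A loss. The median log2 fold changes after POLR1A loss, after POLR2A loss and with actinomycin D were -0.26, -0.29 and -0.05 for the recombination list, -0.16, -0.29 and -0.28 for the Fanconi list and -0.36, -0.61 and -0.56 for the checkpoint list, beside 0.013, 0.084 and -0.061 for all genes tested.

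Genes of S phase were set beside the members. The shares of all genes tested called lower and higher were 18.6% and 20.6% after POLR1A loss, 28.2% and 33.2% after POLR2A loss, and 28.5% and 24.9% with actinomycin D. For expressed coding genes they were 30.6% and 35.5%, 51.4% and 22.7%, and 34.6% and 45.3% in that order. Of 14 S phase and replication genes, 12 fell and 1 rose after POLR1A loss, 9 fell and 2 rose after POLR2A loss, and 4 fell and 9 rose with actinomycin D, with medians of -0.74, -0.20 and 0.24. The mitochondrial scaling gave 11 lower and 1 higher after POLR1A loss, 9 lower and 0 higher after POLR2A loss, and 1 lower and 11 higher with actinomycin D. The licensing factor CDT1 fell by 1.27 with actinomycin D, 1.49 after POLR1A loss and 1.19 after POLR2A loss, where that scaling gave -0.36, -1.14 and -1.49 in that order. The part of this list in the members' values was not tested.

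Gene length was compared with the changes across the 39 members as a description, since the members share the same libraries. Spearman's rho between genomic span and log2 fold change was 0.25 with actinomycin D, 0.07 after POLR1A loss and -0.05 after POLR2A loss. Without RAD51B, the longest, it was 0.20 with actinomycin D. Over 9985 expressed coding genes rho was -0.0021 with actinomycin D, 0.14 after POLR1A loss and -0.14 after POLR2A loss.

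Some members share exons with a neighbour, and the strand setting of the counting is not given in the sources used here, so their counts are uncertain. KLC1 on the opposite strand covers 76.7% of the exonic bases of XRCC3, which itself fell by 0.85 after POLR1A loss and by 0.27 with actinomycin D (a call lost without actinomycin D replicate 3, -0.22). KLC1 differed from controls by 0.16 after POLR1A loss and fell by 0.42 with actinomycin D. A same-strand gene, ENSG00000283782, covers 79.7% of RAD50, and FSBP covers 59.1% of RAD54B. RAD54B fell by 0.57 with actinomycin D, 0.60 after POLR1A loss and 0.56 after POLR2A loss, and FSBP fell by 0.72 and 0.93 with actinomycin D and after POLR1A loss. TREX1 covers 27.9% of ATRIP on the same strand, and rose by 1.94 after POLR2A loss where ATRIP fell. TUBGCP4 covers 28.7% of TP53BP1, LRRC41 25.1% of RAD54L and ZNF276 23.6% of FANCA, all on the opposite strand. VRK2 covers 18.7% of FANCL and the pseudogene EIF2AK1P1 16.4% of ATR, also on the opposite strand. TUBGCP4 rose by 0.29 with actinomycin D, where TP53BP1 rose by 0.21. It was not called after POLR1A loss (0.11) or POLR2A loss (0.031). RAD54L fell by 0.47 after POLR2A loss and by 0.29 after POLR1A loss, where the mitochondrial scaling gave 0.064, and LRRC41 rose by 0.38 and 0.17 in those groups. ZNF276 rose by 0.76 after POLR2A loss, where FANCA fell. CHEK2, FANCD2 and BRCA1 have pseudogene copies, so their values also depend on how shared reads were divided.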

How the data were processed

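Total RNA-seq was analysed in 12 HCT116 libraries, 3 per group, grouped by their titles. The authors deposited estimated counts, 76.1% of them whole numbers, in a table of genes by libraries. Per the submitters' processing notes, FastQC 0.12.0, Trim Galore 0.6.10, STAR, HTSeq 2.0.2, RSEM 1.3.3 and DESeq2 1.44.0 were used with build GRCh38, in no stated order. The sources used here name neither an annotation release nor a strand setting. An estimated count can split a read between similar genes, which leaves overlapping genes and close copies uncertain.

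Counts were rounded, filtered with filterByExpr (23593 of 63241 genes were left), scaled by TMM and tested with edgeR 4.0.16 (R 4.3.3) in a robust quasi-likelihood fit over all 12 libraries with 8 residual degrees of freedom. Calls were made at a Benjamini-Hochberg adjusted p under 0.05 over all genes of a comparison. After the real fit, the step was also run on counts simulated with the spread and control levels of that fit. Coordinates came from GENCODE 29, and promoter windows from RefSeq on GRCh38.p14, of which 31 of 35 members had a window in which the bases just after the start lay within a GENCODE transcript of the gene.

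The members, lists and named-gene rule were chosen with earlier results of these data known. The rule gives values in every library for the 3 highest and 3 lowest called members of a comparison whose groups do not overlap. Other members were described by role, and of each further list up to 3 called genes a direction may be named. Values by library were also given for BRCA1, NBN, FANCL and MDC1, which the rule does not name. The likeness of other genes to members was not reported, since the libraries form 4 clusters. Replicate numbers did not pair the groups: deviations of same-numbered libraries correlated between -0.061 and 0.039. Alternatives were library totals, mitochondrial scaling, no filter, a replicate block, 2-group fits, DESeq2 1.42.0 and leaving out each library. One gene of the comparison lists and a list that rests on it are not reported here.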

Additional observations from a re-analysis of the deposited data

How the results depend on the processing

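Scaling to the 13 mitochondrial mRNAs moved the counts of called members most, and the library totals without TMM less so. The mitochondrial scaling gave 7 members lower after POLR1A loss, 0 higher after POLR2A loss, and 26 higher and 3 lower with actinomycin D. Between treatments it gave 3 lower with actinomycin D than after POLR1A loss, 34 higher and 2 lower with actinomycin D than after POLR2A loss, and 29 higher and 1 lower after POLR1A loss than after POLR2A loss. By library totals 6 members were higher after POLR2A loss, 3 were higher with actinomycin D, and 20 were lower with actinomycin D than after POLR2A loss. With no filter 1 member was higher after POLR2A loss. The other counts lay within 1.5 times those of the text under library totals, no filter, 2-group fits and DESeq2.

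Among log2 fold changes against controls that passed the test in the text or under the other setting, signs turned under the mitochondrial scaling alone among the settings tried. BRCA1, RAD51D, WRN, FANCC and ATM with actinomycin D did not pass it in the text and did under that scaling. After POLR1A loss they became 0.064 for RAD54L, 0.19 for NBN, 0.0065 for FANCB, 0.0032 for FANCC, 0.088 for FANCI and 0.014 for MDC1. After POLR2A loss RAD51C became -0.044 and FANCI -0.18. With actinomycin D they became 0.89 for BRCA1, 0.16 for BRCA2, 0.61 for BRIP1, 0.46 for RAD51C, 0.76 for RAD51D, 0.64 for XRCC3, 0.049 for RAD52 and 0.36 for RAD54B. In the same comparison they became 0.82 for WRN, 0.58 for FANCB, 0.80 for FANCC, 0.23 for SLX4, 0.72 for ATM, 0.47 for ATR, 0.15 for ATRIP and 0.31 for TOPBP1. The scaling divides by other genes, whose own share of the counts differed between the groups, and it moves all values of a comparison together. Of 108 called values checked, it turned the sign of 19 and took the call from 28 more without a turn. Those 108 hold the members called against controls and the members named between treatments.

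Leaving out 1 library at a time gave 5 to 7 members higher and 19 to 21 lower with actinomycin D, 4 to 5 higher and 29 to 32 lower after POLR1A loss, and 2 to 3 higher and 25 to 27 lower after POLR2A loss. Between treatments it gave 19 to 20 higher and 13 to 14 lower for actinomycin D over POLR1A depletion, 16 to 17 and 9 to 14 over POLR2A depletion, and 10 to 13 and 10 to 11 for POLR1A over POLR2A depletion. No called value turned its sign. A fit with the replicate number as a block gave 7 members higher and 20 lower with actinomycin D, 4 and 31 after POLR1A loss, and 2 and 25 after POLR2A loss. Same-numbered libraries share only a number, and the block took the call from FANCI after POLR2A loss (0.12). Depth limited FANCF most, which had 24.91 counts in its lowest library and the widest SE in each comparison with controls.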
